A study of Mus musculus with 6 samples.

Results

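The 10 genes described here encode actins and actin-associated proteins of the contractile cytoskeleton, best known from smooth muscle, and most of them are textbook targets of serum response factor (SRF). They were taken by name (Acta2, Actg2, Tagln, Tagln2, Cnn1, Myl9, Cald1, Vcl, Tpm1 and Tpm2). The choice was made with earlier results of these data known. Each of the 10 matched 1 of the 55487 genes in the table. RNA was sequenced from muscle stem cells, which divide after injury and give rise to the fibres of repaired muscle, in 2 groups of 3 libraries each, labelled as biological replicates. The labels describe mice of the knockout (KO) group as Setdb1 KO and treated with tamoxifen, a drug used to switch on inducible recombinases. Control mice were labelled wild type and had received oil. All were 10 weeks old and were sampled 60 h after cardiotoxin (CTX), a cobra venom protein that destroys fibres and so sets off repair. Setdb1 encodes an enzyme that places a silencing mark, methylation of lysine 9, on histone H3. The comparison asked how transcripts of regenerating muscle stem cells differ without it. The recombinase, its promoter and the deleted exon are not named in the labels. Genotype and tamoxifen changed together, so their effects cannot be told apart.

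SRF is a transcription factor that binds a short DNA element, the CArG box. It works with cofactors of the myocardin family: myocardin itself drives smooth muscle genes, whereas MRTF-A and MRTF-B are held in the cytoplasm by monomeric actin and enter the nucleus when actin assembles into filaments. Smooth muscle actin (Acta2) and transgelin (Tagln, also called SM22-alpha) serve as markers of smooth muscle, pericytes and myofibroblasts, and Acta2 is also expressed in immature skeletal muscle cells. The list mixes genes largely limited to contractile cells (Acta2, Actg2, Tagln, Cnn1, Myl9) with genes used in most cells for stress fibres and adhesion (Tagln2, Cald1, Vcl, Tpm1, Tpm2).

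Promoter sequence is shown because SRF, of which most of the genes are textbook targets, binds CArG boxes. RefSeq promoter windows (build GRCm38.p6) were at hand for 8 of the 10 genes (not Tagln or Actg2), and the 250 bases before each start site were searched on both strands. Capitals mark the box, and its position is counted from the RefSeq start site. That site can differ from the start of the GENCODE gene coordinates given further below. Both Acta2 matches and the Tpm1 match at -80 lie inside those gene coordinates. The box by its strict definition was found in Myl9 and Vcl, 2 of the 8 genes. Over all 27025 genes with a window, 1.62% had one. When 1 of the 10 positions was allowed to depart from it, 5 of the 8 had a match, against 21.1% of all genes. Acta2 had 2 such near matches and Tpm1 had 2. Of 11 paralogs with a window, 5 held the strict box, among them Acta1, Actg1 and Cnn2. A TEAD element, GGAATG, was present in 5 of the 8 genes and in 14.4% of all genes. A match is a run of letters and not a shown binding site. The boxes were as follows.
Myl9 strict box at -161, chr2:156775293-156775322, plus strand: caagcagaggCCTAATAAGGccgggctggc
Vcl strict box at -227, chr14:20929161-20929190, plus strand: cccactatgcCCTTATAAGGagcgccccgc
Acta2 near match at -84, chr19:34255438-34255467, minus strand: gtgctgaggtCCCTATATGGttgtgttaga
Acta2 near match at -34, chr19:34255388-34255417, minus strand: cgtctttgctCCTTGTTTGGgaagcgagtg
Tpm1 near match at -221, chr9:67049415-67049444, minus strand: gctcgggtccCCATATATAGtcatatccac
Tpm1 near match at -80, chr9:67049274-67049303, minus strand: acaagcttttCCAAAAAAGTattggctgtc
Acta1 strict box at -73, chr8:123894829-123894858, minus strand: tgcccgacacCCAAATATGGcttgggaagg
Actg1 strict box at -90, chr11:120348566-120348595, minus strand: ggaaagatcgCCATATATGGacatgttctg
Cnn2 strict box at -56, chr10:79988534-79988563, plus strand: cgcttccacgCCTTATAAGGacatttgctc

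The wider context is shown for the 2 genes of the set with a strict box, of which Myl9 rose in KO cells and Vcl did not pass the test. Both stretches end where the GENCODE gene model starts. For Myl9 the RefSeq window ran on to 156775463, so its box position of -161 does not count from the end of the stretch.
Myl9, chr2:156775214-156775419, plus strand: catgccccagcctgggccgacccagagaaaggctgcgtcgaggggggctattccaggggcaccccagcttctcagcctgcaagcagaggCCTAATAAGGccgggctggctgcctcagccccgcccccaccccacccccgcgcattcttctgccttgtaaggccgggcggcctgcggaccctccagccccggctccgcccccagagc
Vcl, chr14:20929148-20929397, plus strand: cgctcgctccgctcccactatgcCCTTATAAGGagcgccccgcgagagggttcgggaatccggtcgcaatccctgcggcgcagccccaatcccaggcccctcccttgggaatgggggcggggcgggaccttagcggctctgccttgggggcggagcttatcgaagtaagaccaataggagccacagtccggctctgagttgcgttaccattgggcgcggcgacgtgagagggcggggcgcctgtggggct

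Libraries held 4052569 to 5178823 counts in KO and 4568845 to 5690844 in control mice, of which a single ribosomal RNA gene took 28.6% to 38.4%. Setdb1 was at 16.5, 12.7 and 14.7 CPM (counts scaled for library size and composition) in the KO libraries, against 34.9, 40.5 and 32.1 CPM in control libraries. The muscle stem cell marker Pax7 was detected in every library, at a mean of 26.9 CPM in both groups. Libraries differed in granulocyte transcripts within both groups: S100a9 had 2, 1051 and 385 counts in KO libraries 1, 2 and 3, and 0, 0 and 3406 counts in control libraries 1, 2 and 3. Each gene was tested with edgeR over all 11224 genes that passed a low-count filter, and a gene was called at an adjusted p under 0.05.

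Of the 10 genes, Tagln, Acta2 and Myl9 rose in KO cells and Tpm1 fell. Tagln2, Cald1, Vcl and Tpm2 were tested and not called, and Actg2 and Cnn1 had too few counts to test. Thus 3 were called higher and 1 lower, where 2.22% of all tested genes were called higher and 0.615% lower (2.83% in either direction). These rates are given as a description, since the set was chosen with earlier results known. The median log2 fold change of the 8 tested genes was 0.29, and that of all tested genes was 0.01. DESeq2, which called 1.01% of its genes higher and 0.254% lower (1.26% in all), called Tagln and Tpm1 only. Limma-voom called 2.17% of genes higher and 0.552% lower (2.72% in all), Tagln, Acta2, Myl9 and Tpm1 among them. Leaving out 1 library kept the Tagln and Tpm1 calls alone without KO library 1, KO library 2 or control library 1, and Tagln alone without control library 2. Without KO library 3, or without control library 3, the library with most granulocyte transcripts, Acta2, Tagln and Tpm1 were called.

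**Figure D1:**
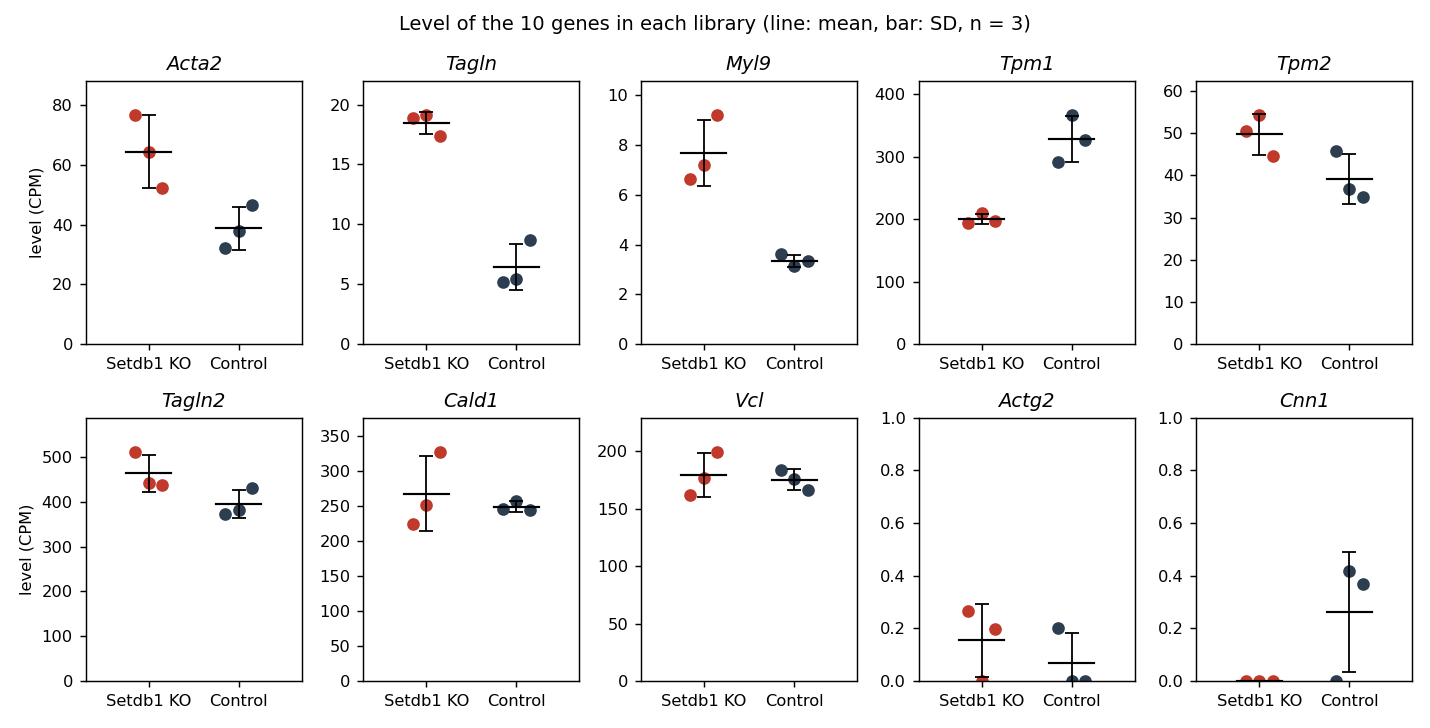
Level of each of the 10 genes in CPM (y axis, from 0, own scale per panel) in the 3 Setdb1 KO libraries (left, red) and the 3 control libraries (right, dark blue), with points for libraries in replicate order, a line for the mean and a bar for the SD. Acta2, Tagln and Myl9 lie higher in every KO library than in any control library, Tpm1 lies lower in every KO library, and Actg2 and Cnn1 stay under 1 CPM.

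Tagln encodes transgelin, a small protein that bundles actin filaments (ENSMUSG00000032085, chromosome 9, 45929619 to 45936058, minus strand, GRCm38). It was at 18.9, 19.1 and 17.4 CPM in the 3 KO libraries, against 5.21, 5.43 and 8.68 CPM in the 3 control libraries. The groups did not overlap, which was true of 24.3% of all tested genes (12.8% with KO higher and 11.5% with KO lower), and the 3 KO values lay close together. Tagln averaged 18.5 ± 0.93 CPM in KO cells and 6.44 ± 1.95 CPM in control cells (SD, n = 3 each). The log2 fold change was 1.51 with an SE of 0.21 (adjusted p = 0.000832 in edgeR). It was called under each of the 16 alternatives, with an adjusted p of at most 0.0102. The exons of Tagln overlap those of the antisense gene Gm48529 over 62.4% of their length and those of Pcsk7 over 5.4%. Without a stated strand setting, reads of such genes cannot be told apart. Gm48529 itself held 11 counts in KO and 14 in control libraries, and Pcsk7 held 132 and 130, in the same order.

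Acta2 encodes smooth muscle alpha actin (ENSMUSG00000035783, chromosome 19, 34241090 to 34255590, minus strand). It was at 76.6, 64.5 and 52.2 CPM in KO libraries, against 32.2, 37.8 and 46.6 CPM in control libraries. The lowest KO library was close to the highest control library. Its mean was 64.4 ± 12.2 CPM in KO cells and 38.9 ± 7.21 CPM in control cells (SD, n = 3 each). Its log2 fold change was 0.72 with an SE of 0.16 (adjusted p = 0.0333). The call was lost with DESeq2 (adjusted p = 0.0818) and without KO library 1 (0.161), KO library 2 (0.123), control library 1 (0.0996) or control library 2 (0.149). The log2 fold change stayed between 0.58 and 0.87 under every alternative.

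Myl9 encodes the regulatory light chain of smooth muscle and non-muscle myosin II, whose phosphorylation starts contraction (ENSMUSG00000067818, chromosome 2, 156775420 to 156781658, plus strand). Its counts were low, at 25, 35 and 47 in KO libraries and 18, 15 and 18 in control libraries. In CPM, these were 6.65, 7.19 and 9.19 in KO libraries, against 3.61, 3.13 and 3.33 in control libraries, and the groups did not overlap. Its log2 fold change of 1.19 had an SE of 0.28 (adjusted p = 0.0358). DESeq2 did not call it (adjusted p = 0.397), and neither did edgeR with library totals alone (0.061) or without any 1 of the 6 libraries (0.0645 to 0.155).

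Tpm1 encodes alpha-tropomyosin, which winds along actin filaments and in striated muscle governs the access of myosin (ENSMUSG00000032366, chromosome 9, 67022590 to 67049406, minus strand). It moved against the 3 genes above, with 194, 209 and 196 CPM in KO libraries and 292, 366 and 327 CPM in control libraries. The 3 KO libraries were nearly equal and all lay lower than any control library. Tpm1 averaged 199.9 ± 8.14 CPM in KO cells and 328 ± 37.1 CPM in control cells (SD, n = 3 each). The log2 fold change of -0.72 had an SE of 0.12 (adjusted p = 0.00387). The call ended only without control library 2 (adjusted p = 0.0521). Tpm1 makes many isoforms from separate start sites, and a count per gene does not tell which of them was lower.

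The 4 other tested genes showed smaller differences, none of which passed. Tpm2, beta-tropomyosin, averaged 49.8 ± 4.87 CPM in KO cells and 39.2 ± 5.86 CPM in control cells (log2 fold change 0.35, SE 0.14, adjusted p = 0.213). Tagln2, the broadly expressed relative of transgelin, was at 512, 443 and 438 CPM in KO libraries and 373, 382 and 432 CPM in control libraries (log2 fold change 0.23, SE 0.13, adjusted p = 0.357). Its groups did not overlap, but its lowest KO library and highest control library were within a few CPM. Cald1, caldesmon, which binds actin and calmodulin, averaged 267 ± 53.2 CPM in KO cells and 249 ± 7.42 CPM in control cells, with most of the KO spread from KO library 3. Vcl, vinculin, which ties actin to integrin and cadherin adhesions, averaged 179.5 ± 19.0 CPM in KO cells and 175 ± 8.93 CPM in control cells (log2 fold change 0.03, SE 0.12, adjusted p = 0.917). Exons of Vcl overlap the converging gene Ap3m1 over 25.5% of their length. Ap3m1 held 650 counts in KO and 696 in control libraries.

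Actg2 and Cnn1, both characteristic of differentiated smooth muscle, had almost no counts. Actg2, enteric gamma actin, had 1, 0 and 1 counts in KO libraries and 1, 0 and 0 in control libraries. Cnn1, calponin 1, a marker of contractile smooth muscle, had 0 counts in every KO library and 0, 2 and 2 in control libraries. A count of 0 over the KO group allows up to 0.212 CPM for Cnn1 (3 counts, counting error only), so no difference was detectable at this depth.

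Compared per kilobase of annotated exon, Tagln2 was the most abundant gene, at a mean of 206.5 CPM per kb over the 6 libraries. Tpm1 followed at 40.7 CPM per kb without overlapping it. Acta2 (23.5 CPM per kb), Vcl (21.7), Cald1 (21.4) and Tpm2 (15.3) came next, each overlapping its neighbour in the order. This order was over both groups: Acta2 (29.3 CPM per kb) averaged more than Vcl (21.9) and Cald1 (22.2) in KO cells, but less (17.7) than Vcl (21.4) and Cald1 (20.6) in control cells. Tagln (6.26 CPM per kb) and Myl9 (4.75) were lower, overlapped each other and lay apart from Tpm2. The 2 genes with the largest increases were therefore the least abundant of the 8 tested.

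**Figure D2:**
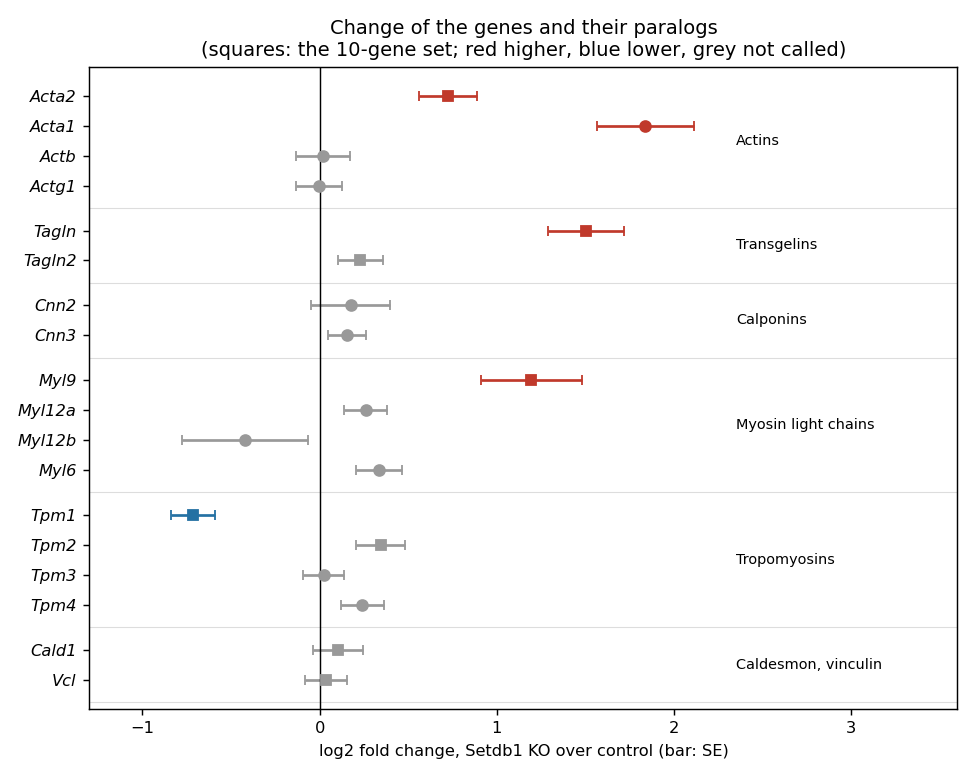
Log2 fold change of Setdb1 KO over control (x axis, bars are SE) for the tested genes of the set (squares) and their tested paralogs (circles), grouped by family. Red marks genes called higher, blue lower and grey not called. Acta2, Acta1, Tagln and Myl9 are called higher, and Tpm1 is the only gene shown that is called lower.

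Of the paralogs of these genes, Acta1 rose and no other was called. Acta1, skeletal alpha actin, was at 12.2, 10.1 and 10.6 CPM in KO libraries, against 4.01, 2.71 and 2.40 CPM in control libraries (log2 fold change 1.84, SE 0.28, adjusted p = 0.00123), 1 of 10 paralogs tested. Actb averaged 3244 ± 181.5 CPM in KO cells and 3203 ± 406 CPM in control cells, and Actg1 averaged 1582 ± 49.4 and 1588 ± 57.9 CPM, in the same order. Actg1 shared 37.4% of its 50-base words with other genes, among them the pseudogene Actg-ps1, and Actb 9.1%, whereas Acta2 shared 0.3% and Acta1 2%. Among myosin light chains, Myl6 averaged 103 ± 8.38 CPM in KO cells and 81.4 ± 12.6 CPM in control cells (adjusted p = 0.191) and Myl12a 129 ± 8.71 and 107.5 ± 11.3 CPM, also in that order. Myl12b is annotated as 2 overlapping genes whose reads cannot be divided with certainty. Of the calponins other than Cnn1, Cnn3 averaged 190 CPM in KO cells and 171 CPM in control cells (adjusted p = 0.485), and Cnn2 averaged 12.9 and 11.4 CPM in that order (adjusted p = 0.728).

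Shares inside a family do not depend on how libraries are scaled, so they were compared as well. Of the summed level per kb of the 4 tropomyosin genes, Tpm1 made up 10.1%, 10.0% and 10.2% in KO libraries, against 17.0%, 18.7% and 16.8% in control libraries. Tpm4, a tropomyosin of non-muscle stress fibres, made up 66.4%, 66.6% and 67.3% in KO libraries and 58.9%, 59.3% and 60.7% in control libraries, although its own level was not called (log2 fold change 0.24, adjusted p = 0.32). The share of Tpm1 differed by -7.38 percentage points and that of Tpm4 by 7.18 points, or by -11.2 and 8.28 points with no length scaling. The 4 shares sum to 100%, so a lower share of 1 gene requires a higher share elsewhere. Acta2 held 1.82%, 1.57% and 1.36% of the 6 actin genes in KO libraries, against 0.868%, 0.991% and 1.05% in control libraries. Tagln held 4.01 ± 0.30% of Tagln plus Tagln2 in KO cells and 1.66 ± 0.35% in control cells (SD, n = 3 each). Groups did not overlap for these 4 shares nor for that of Tpm3, which was 17.5 ± 0.21% in KO cells and 18.2 ± 0.41% in control cells. The Tpm3 difference of -0.694 points turned to 1.74 points with no length scaling. With 3 libraries against 3, an exact two-sided permutation test cannot go below p = 0.1, the value of each of these 5 shares (adjusted p = 0.14 over the 7 compared). The shares of Tpm2 and Cnn1 overlapped between groups (exact permutation p = 0.4 each).

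**Figure D3:**
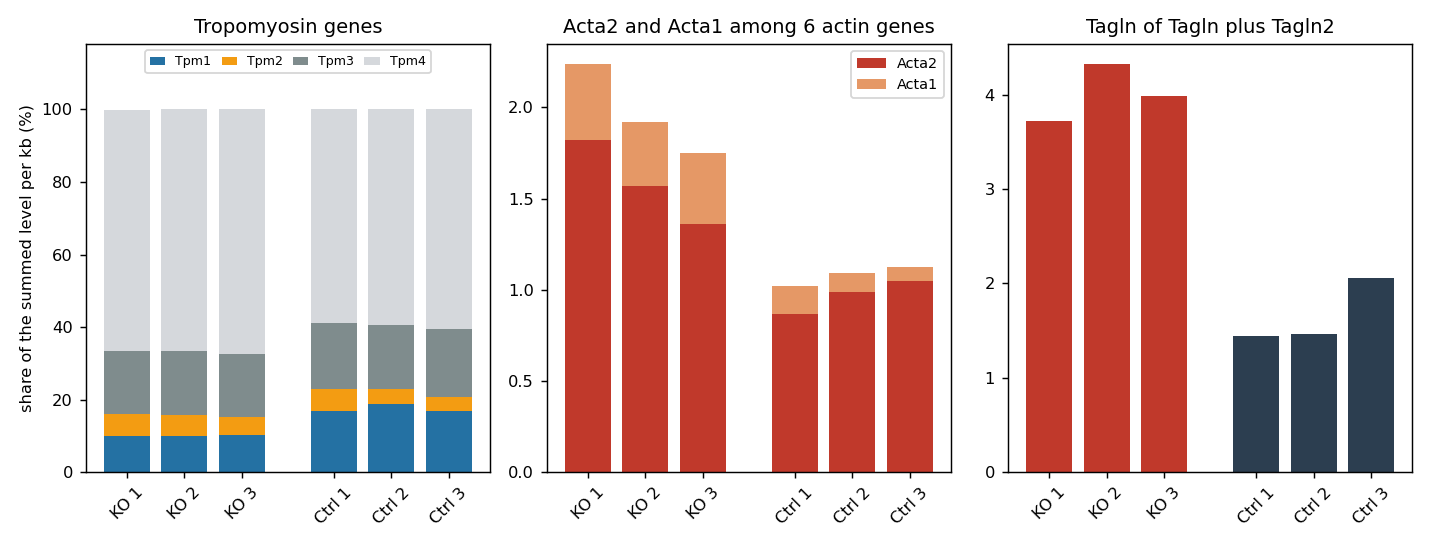
Share of the summed level per kb within a gene family (y axis, percent) in each library, KO left and control right: the 4 tropomyosin genes stacked to 100%, Acta2 and Acta1 stacked as part of 6 actin genes, and Tagln as part of Tagln plus Tagln2. Tpm1 makes up about 10.1% of tropomyosin in KO libraries and 17.5% in control libraries.

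No change in SRF or its cofactors passed the test. Srf, named after its values were seen, averaged 36.9 ± 4.91 CPM in KO cells and 32.1 ± 4.70 CPM in control cells (adjusted p = 0.543). Mrtfa averaged 15.5 ± 4.64 and 17.6 ± 2.07 CPM (adjusted p = 0.698) and Mrtfb 24.3 ± 3.71 and 21.8 ± 2.31 CPM (adjusted p = 0.66), both also named afterwards and in the same order. Myocd, myocardin, had 10 counts in KO and 2 in control libraries and was not tested. The list also holds ELK and TEAD factors. None of its 12 tested genes was called in edgeR, and 2 were lower with p under 0.05 before adjustment (857 of all 11224 genes). DESeq2 and limma-voom called none of them either. The most abundant of them were Wwtr1, the coactivator TAZ, and Tead1, its DNA-binding partner. Tead1 averaged 110 ± 14.5 CPM in KO cells and 147 ± 26.1 CPM in control cells (log2 fold change -0.41, adjusted p = 0.158) and was called without control library 3 (adjusted p = 0.0268).

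Other genes of contractile and adhesion function mostly had small positive differences. Of 16 tested smooth muscle contractile genes, Itga8, the integrin alpha 8 subunit found on smooth muscle, rose, to 5.79 ± 0.79 CPM in KO cells against 2.03 ± 0.31 CPM in control cells (log2 fold change 1.49, SE 0.34, adjusted p = 0.0273). No other gene of the list passed. Including Itga8, 5 were higher with p under 0.05 before adjustment, and the median log2 fold change was 0.14. Csrp1, a LIM protein of actin bundles, was also called without control library 3. Of 34 cytoskeletal and adhesion targets of MRTF and SRF reported here, all tested, none was called by edgeR or limma-voom, and DESeq2 called Ccn2, the matrix protein CTGF. With edgeR, removal of control library 1 brought in Itga5, that of control library 2 or of the low-count filter Ccn2, and that of control library 3 Vasp (higher) and Ankrd1 (lower). The most abundant were Lmna, a nuclear lamin, at 909 ± 67.8 CPM in KO cells and 794 ± 14.5 CPM in control cells (adjusted p = 0.445), and Cfl1, cofilin, which severs actin filaments, at 748 ± 66.0 and 737 ± 113 CPM in that order (adjusted p = 0.959). A positive fold change was measured in 28 of these 34 (median 0.14), with 10 higher and 1 lower at p under 0.05 before adjustment. Over all 11224 genes these numbers were 5712 positive, 1132 higher and 857 lower. The Itga8 call ended under DESeq2 (adjusted p = 0.326) and on removal of any 1 library except control library 3 (0.059 to 0.131).

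Transforming growth factor beta (TGF-beta) is a classic inducer of Acta2 and Tagln. In the TGF-beta list none of 17 tested genes was called by edgeR, limma-voom or DESeq2 (median -0.02). Before adjustment in edgeR, 2 were higher with p under 0.05, against 1132 of all 11224 genes. With edgeR, Ltbp2 was called without the low-count filter, and Ltbp2 and Tgfbr3 without control library 1. Its most abundant genes, Ltbp1 and Ski, had log2 fold changes of -0.16 and 0.28 (adjusted p = 0.544 and 0.242).

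**Figure D4:**
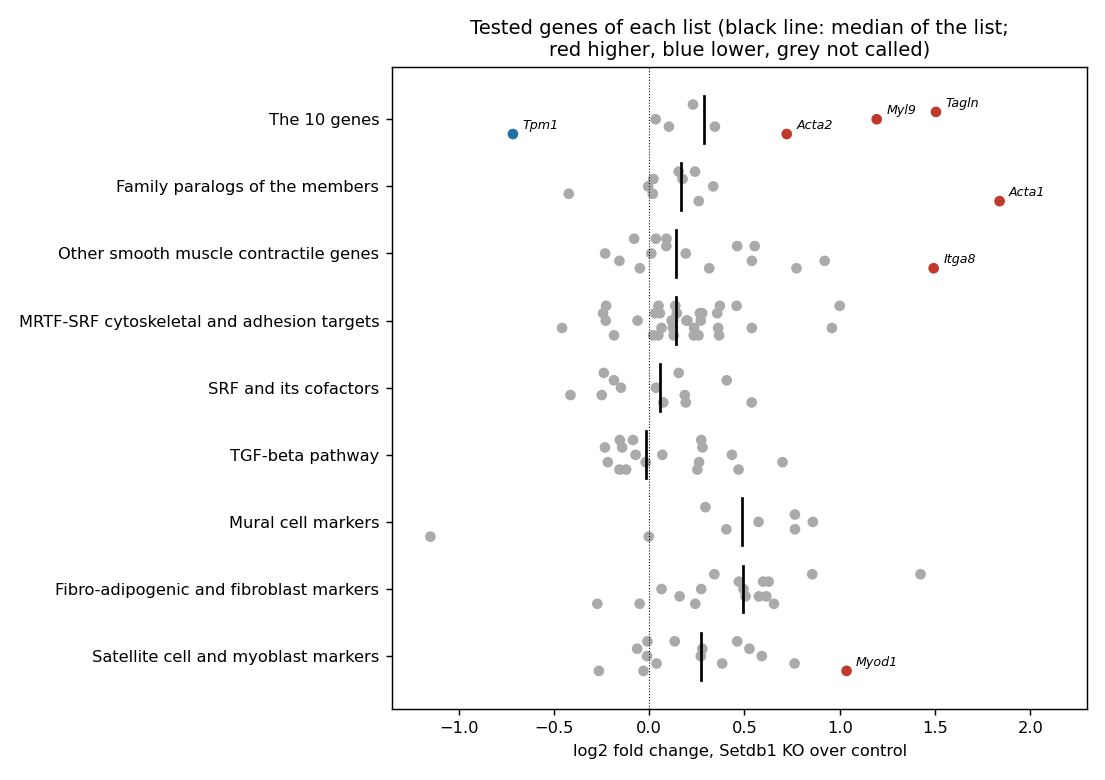
Log2 fold change of Setdb1 KO over control (x axis) for every tested gene of 9 lists (rows), 1 point per gene, with the list's median as a black line. Called genes are named, in red where higher and blue where lower. The 10-gene set, with 8 genes tested, holds 4 of the 7 called genes shown, and 2.83% of all tested genes were called. Set and lists were chosen with earlier results of these data known.

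In a bulk sample, fewer cells of a type and less RNA per cell cannot be told apart, so markers of other cells were measured beside these genes. The summed level of 16 mural cell markers ran from 136.8 to 168.9 CPM in KO libraries and from 71.0 to 117.8 CPM in control libraries, without overlap. Its largest part was Notch3, a receptor also expressed by muscle stem cells, which averaged 82.7 ± 14.5 CPM in KO cells and 48.6 ± 16.4 CPM in control cells (adjusted p = 0.166); without control library 1 its adjusted p was 0.00187. Without Notch3 and Heyl, another gene of the list, the groups overlapped. The other 14 markers then summed to 52.66, 45.79 and 61.36 CPM in KO libraries. In control libraries they summed to 39.85, 27.14 and 66.13 CPM. The overlap came from control library 3 alone, and every KO sum was higher than those of control libraries 1 and 2. Of the 8 tested mural markers, 6 had a positive log2 fold change and the median was 0.49. Cspg4, the pericyte proteoglycan NG2, averaged 6.05 ± 0.81 CPM in KO cells and 3.54 ± 0.85 CPM in control cells without overlap (adjusted p = 0.213), and Steap4 17.7 ± 3.32 and 13.3 ± 3.72 CPM in the same order (adjusted p = 0.344). Rgs5, a pericyte marker, held 31, 33 and 51 counts in KO libraries and 20, 17 and 93 in control libraries. Myh11, smooth muscle myosin, held 6, 13 and 6 counts in KO libraries and 2, 5 and 23 in control libraries. For both genes, control library 3 held most of the control counts, and every KO library was higher than control libraries 1 and 2. Over all libraries, the log2 fold change of Rgs5 was -0.002, and Myh11 was not tested. Abcc9 held 13, 7 and 9 counts in KO libraries and 7, 10 and 58 in control libraries (log2 fold change -1.15, adjusted p = 0.551). Kcnj8, not tested, held 2 counts in KO and 6 in control libraries. Higd1b was at 0 in all 6 libraries and Trpc6 in the 3 control libraries. None of the 8 was called by edgeR, limma-voom or DESeq2. Before adjustment in edgeR, 3 were higher with p under 0.05, against 1132 of all 11224 genes. Heyl and Notch3 were called by edgeR without control library 1 or without the low-count filter.

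Fibroblast markers overlapped between groups, with a summed level over 20 genes of 2146 to 3410 CPM in KO libraries and 1158 to 2601 CPM in control libraries. Of 17 tested fibroblast markers, 15 had a positive log2 fold change, and the median of 0.50 was larger than that of the 8 tested genes of the set. None of the 17 was called in edgeR or limma-voom, and DESeq2 called Gsn. Before adjustment in edgeR, 3 were higher and 1 lower with p under 0.05, against 1132 and 857 of all 11224 genes. With edgeR, Smoc2 was called without KO library 1, Gsn without KO library 3, Col3a1 and Pdgfra without control library 1, and Col3a1, Gsn and Smoc2 without the low-count filter. The most abundant, Col1a1, averaged 548 ± 217 CPM in KO cells and 367.5 ± 187 CPM in control cells. Markers of muscle stem cells and myoblasts ran from 1733 to 2180 CPM in KO libraries and from 1492 to 1618 CPM in control libraries, without overlap. Of 15 tested, 10 had a positive log2 fold change and 5 a negative one (median 0.27). Only Myod1, which commits cells to muscle, was called. It rose to 292 ± 63.4 CPM in KO cells against 142 ± 5.50 CPM in control cells (log2 fold change 1.04, adjusted p = 0.000779). Des averaged 510 and 370.5 CPM in the same order (adjusted p = 0.108). Myod1 and Des differed most in mean CPM. In KO library 3 they held 237.6 and 428.0 CPM of a sum of 1733 CPM. In control library 1 they held 141.0 and 379.7 CPM of a sum of 1618 CPM. Without Myod1 and Des, KO library 3 summed to less than control library 1, so the groups overlapped. The log2 fold change of Pax7 was -0.011. The part of these markers in the changes of Acta2, Tagln, Myl9 and Tpm1 was not tested.

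Sums of the other marker lists overlapped between the groups. Endothelial markers summed to 12.3 to 18.9 CPM in KO and 6.05 to 14.8 CPM in control libraries, with Esam at 0 in all 6 libraries and Robo4 at 0 in control libraries. Macrophage markers summed to 14.1 to 49.3 CPM in KO and 11.9 to 116.7 CPM in control libraries, with C1qa at 0 in KO libraries. Neutrophil markers summed to 4.79 to 755 CPM in KO and 1.60 to 2050 CPM in control libraries. Tendon markers summed to 775 to 1236 CPM in KO and 375 to 1120 CPM in control libraries. Schwann cell markers summed to 22.9 to 39.4 CPM in KO and 23.4 to 34.7 CPM in control libraries, with Foxd3 and S100b at 0 in control libraries.

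**Figure D5:**
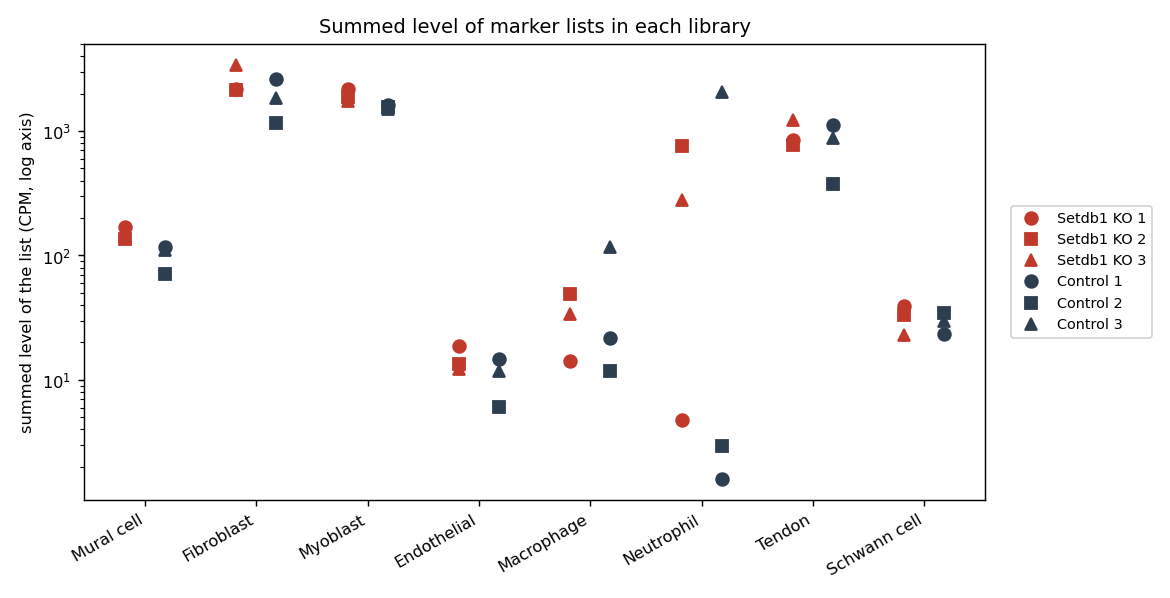
Summed level of each marker list (y axis, CPM, log scale) in the 3 Setdb1 KO libraries (red, left) and the 3 control libraries (dark blue, right), with 1 symbol per replicate number. Only the mural and myoblast lists separate the groups. The mural list does not when Notch3 and Heyl are left out, nor does the myoblast list when Myod1 and Des are left out. The neutrophil list varies most within the groups, from 1.60 to 2050 CPM among control libraries.

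Genes with the most similar profile to Acta2 and Tagln were listed as a description, over 6 libraries and 7047 genes of at least 10 CPM, and the group difference is itself part of the likeness. For Acta2 they were Rps19 (Pearson r 0.99), Tmem185b, Ubap1, Capns1 and Cd82. Of these, Tmem185b and Cd82, a tetraspanin of the cell surface, were called higher (adjusted p = 0.0309 and 0.0293), and both calls ended with DESeq2 (0.295 and 0.0662) and on removal of KO library 1 (0.166 and 0.124), KO library 2 (0.108 and 0.125), control library 1 (0.0996 and 0.103) or control library 2 (0.14 and 0.167). The Cd82 call also ended with library totals alone (0.0986) and without the low-count filter (0.0573). For Tagln they were Prdx5 (r 0.99), Arcn1, Id3, Chic2 and Ankrd13a. Prdx5, a peroxiredoxin, was called higher, at 45.5 ± 2.72 CPM in KO cells and 24.8 ± 3.23 CPM in control cells (adjusted p = 0.00191). Within the set, Acta2 ran closest to Tagln2 (r 0.96) and Tagln (r 0.93), and Cald1 to Vcl (r 0.90). Tagln also ran close to Myl9 (r 0.909), and Tpm1 ran opposite to Myl9 (r -0.955) and Tagln (r -0.916).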

How the data were processed

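The deposited table gives, for each library, the authors' unnormalised counts of reads per Ensembl gene. Ribosomal RNA was depleted and stranded libraries were sequenced as 75-base pairs, per the labels' protocols, which name a second kit as well. The submitters' processing notes list DESeq2 1.34.0, Salmon and STAR with build GRCm38. Counting tool, strand setting and annotation: not given in the sources used here.

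Members, lists and the rule for naming genes were chosen with earlier results of these data known. The rule named the 10 genes, up to 4 called genes per list or else the 2 most abundant, and the 5 nearest profiles to Acta2 and Tagln. Srf, Mrtfa, Mrtfb, Myocd, paralogs other than Acta1, Rgs5, Myh11, Cspg4, Heyl, Csrp1, Ccn2, Itga5, Vasp, Ankrd1, Ltbp2, Tgfbr3, Smoc2, Col3a1, Pdgfra, Gsn and the overlapping genes fall outside it and were chosen after their values were seen. So were Abcc9, Kcnj8 and Des. For endothelial, immune, tendon and Schwann lists, summed levels alone are given. A signalling list and a gene of the adhesion list are not reported here. Symbols were found for 55141 genes. The test was the quasi-likelihood test of edgeR 4.0.16 (TMM, default filter, Benjamini-Hochberg over 11224 genes) in R 4.3.3, two-sided. SE was derived from the F statistic. Levels per kb and coordinates use GENCODE M21 exons, and promoters are from RefSeq. The labels call libraries of a group biological replicates. On simulated data for this comparison, 16.7% of 1.5-fold, 60.9% of 2-fold and 88.8% of 4-fold changes were recovered. Alternatives included DESeq2 1.42.0 and limma 3.58.1. No 2 libraries of a group were copies.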

Additional observations from a re-analysis of the deposited data

How the results depend on the processing

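Of the 8 tested genes of the set, Tagln, Tagln2 and Tpm2 kept direction and call status under all 16 alternatives, and Acta2, Myl9 and Tpm1 kept direction. The 4 calls became 2 with DESeq2 (1 higher) and 2 with the replicate block (1 higher), and ran from 1 to 3 when 1 library was left out (1 to 2 higher, 0 to 1 lower). The replicate block gave an adjusted p of 0.107 for Acta2, 0.0709 for Myl9, 0.0544 for Itga8, 0.0606 for Tmem185b and 0.0725 for Cd82, whose calls it ended, and 0.00623 for Notch3, which it called. Removing KO library 1 and control library 3 at once also ended the Itga8 call (0.0614). Deviations of same-numbered libraries correlated at 0.142, -0.093 and -0.062, within the range of differently numbered ones (-0.25 to 0.286). These values gave no sign that replicate numbers pair the libraries, but so few cannot exclude it. Over all genes, 318 calls (249 higher, 69 lower) became 511 without a low-count filter (138 lower), 184 with DESeq2 (147 and 37) and 41 lower with the block, and lower calls numbered 106 without control library 3 and KO library 1 together, chosen after seeing the data. Leaving out 1 library gave 152 to 345 calls (133 to 255 higher, 15 to 90 lower). The log2 fold change of Vcl reversed with library totals alone (-0.036) and without the filter (-0.006), and with 1 library left out it ran from -0.062 without KO library 3 to 0.103, also reversing without control library 3 (-0.006). With 1 library left out, that of Cald1 ran from -0.078 to 0.217, Cfl1 from -0.077 to 0.148, Col1a2 from -0.101 to 0.565 and Mrtfa from -0.396 to 0.044. Cfl1 also reversed with library totals alone (-0.037), without the filter (-0.019) and with DESeq2 (-0.014), and Mrtfb without control library 3 and KO library 1 together (-0.022). With no length scaling, shares differed by -11.2 points for Tpm1 and 8.28 for Tpm4, and Tpm3 reversed (1.74). The causes were not tested. In the simulation, with changed genes drawn at random from all tested genes, most 1.5-fold changes went uncalled. Recovery at the levels of the genes of the set was not measured separately.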
